A study of Mus musculus with 6 samples.

Results

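The region described here is the stretch of mouse chromosome 10 that holds *Nuak1*, *Appl2*, *Aldh1l2* and *Washc4*. It was chosen by its compartment score, PC1, which rose from myoblasts to myotubes in these same Hi-C matrices, so the rise itself describes how the region was picked and was not tested. The 4 genes start in 2 neighbouring bins of 500 kb. *Aldh1l2*, *Washc4* and *Appl2* start in chr10:83500001-84000000 (mm10), called the *Appl2* bin, and *Nuak1* starts in chr10:84000001-84500000, the *Nuak1* bin. With 2 Mb on each side the region has 10 bins, of 262 on chromosome 10 and 5272 on the autosomes and chromosome X, and 55 protein-coding genes start in it.

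The 3 conditions were C2C12 myoblasts, myotubes and AraC-treated myotubes, each measured as 2 biological replicates, 6 Hi-C libraries in all. C2C12 is an established myoblast line from thigh muscle of C3H mice. Myoblasts were harvested below confluence after 72 h of proliferation (day 0), myotubes after 3 days in differentiation medium, and AraC-treated myotubes at day 7. These had been kept from day 3 in AraC, a cytosine arabinoside, at 10 µg/mL. AraC blocks DNA synthesis and was used to remove remaining dividing myoblasts, so the day 3 myotube cultures could still hold them. Days in differentiation medium and AraC changed together between myotubes and AraC-treated myotubes and cannot be told apart. In these bulk cultures, a shift in every nucleus and a shift in the share of myotube nuclei also cannot be told apart. The replicates of each condition had been pooled before deposit, so every value below is 1 value per condition, with no error between replicates and no test.

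*Nuak1* encodes a kinase of the AMPK-related family, which is switched on by phosphorylation by LKB1 (*Stk11*) and acts on the myosin phosphatase complex and so on cell adhesion. *Appl2* encodes an adaptor protein of early endosomes that takes part in membrane receptor signalling, and *Washc4* a subunit of the WASH complex, which drives actin assembly on endosomes. *Aldh1l2* encodes the mitochondrial 10-formyltetrahydrofolate dehydrogenase of folate metabolism. Hi-C reads which pieces of the genome lie close together in the nucleus. Open, gene-rich A compartment chromatin keeps company with other A chromatin, and closed B compartment chromatin with other B chromatin, along the chromosome and between chromosomes.

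The genes lie close to each other. *Aldh1l2* (chr10:83487450-83534140, minus strand, ENSMUSG00000020256.14) and *Washc4* (chr10:83543752-83596473, plus strand, ENSMUSG00000034560.6) start back to back. *Appl2* (chr10:83600033-83648738, minus strand, ENSMUSG00000020263.14) follows, and the bin also holds the start of *1500009L16Rik*. *Nuak1* (chr10:84370905-84440597, minus strand, ENSMUSG00000020032.14) spans 69.7 kb near the right end of its bin and was its only protein-coding gene by start site. The promoters are shown because these genes share the compartment rise while their start sites differ in sequence. They are the 250 bases before the RefSeq start (GRCm38.p6, which is mm10), written in the direction of transcription, with the GC box GGGCGG on either strand (CCGCCC on the other) in capitals. The first is *Nuak1*, chr10:84440669-84440918 on the minus strand, then *Appl2*, chr10:83648665-83648914 on the minus strand, and *Washc4*, chr10:83543691-83543940 on the plus strand.
Nuak1: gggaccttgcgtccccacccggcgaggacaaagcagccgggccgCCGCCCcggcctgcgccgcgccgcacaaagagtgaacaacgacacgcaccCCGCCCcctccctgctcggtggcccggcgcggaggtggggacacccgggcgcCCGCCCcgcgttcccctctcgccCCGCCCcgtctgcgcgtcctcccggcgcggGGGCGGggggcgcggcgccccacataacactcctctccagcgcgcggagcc
Appl2: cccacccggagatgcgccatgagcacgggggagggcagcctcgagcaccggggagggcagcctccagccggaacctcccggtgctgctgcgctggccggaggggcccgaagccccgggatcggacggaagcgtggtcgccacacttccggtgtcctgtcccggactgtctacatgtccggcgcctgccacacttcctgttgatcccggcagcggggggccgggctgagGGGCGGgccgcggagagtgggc
Washc4: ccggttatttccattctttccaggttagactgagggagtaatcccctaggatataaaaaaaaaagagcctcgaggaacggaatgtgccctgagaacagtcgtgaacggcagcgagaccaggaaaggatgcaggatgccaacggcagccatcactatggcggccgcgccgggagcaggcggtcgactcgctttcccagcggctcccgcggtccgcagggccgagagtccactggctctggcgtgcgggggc
The *Nuak1* promoter held 5 GC boxes and 38 CpG dinucleotides at 79.2% GC, and 98.1% of the 32851 RefSeq promoters had fewer CpG. The *Appl2* promoter held 1 GC box and 25 CpG, and that of *Washc4* no GC box and 21 CpG, against a median of 6 CpG. A GC box was present in 32.7% of all promoters. CANNTG, the E-box core read by MyoD and its relatives, was in none of the 3 windows and in 66.2% of all promoters. TATAAA, searched on both strands, was found once, in *Washc4*, and in 12.4% of all promoters. These are matches of letters and say nothing of binding.

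Each deposited value is a Pearson correlation coefficient between the contact profiles of 2 bins, from -1 to 1. PC1 is the main axis of these coefficients within chromosome 10, with positive values set to A, and is given in SD units, that is, divided by its SD over chromosome 10 bins. That SD was 0.762 in myoblasts, 1.47 in myotubes, then 1.26 in AraC-treated myotubes, and PC1 took 37.2%, 71.0% and 64.0% of the variance. Values of PC1 that are not divided by the SD therefore spread more widely in both later conditions. Of the 262 bins of chromosome 10, 255 had data in all conditions, and all 10 bins of the region were among them.

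In myoblasts both member bins lay close to the border between the compartments, and in both kinds of myotubes they lay in A, a move made by 2.77% of autosomal bins to myotubes and 3.72% to AraC-treated myotubes. PC1 of the *Nuak1* bin was -0.04 SD in myoblasts, 1.09 SD in myotubes, then 1.76 SD in AraC-treated myotubes. PC1 of the *Appl2* bin, with *Appl2*, *Washc4* and *Aldh1l2*, was -0.20 SD, 0.76 SD and 1.47 SD. In every one of the 5 other ways of computing the component, the sign was negative in myoblasts and positive in myotubes and AraC-treated myotubes for both bins. The myoblast value of the *Nuak1* bin stayed between -0.105 and -0.0297 SD, which is a value next to 0 rather than a clear place in B.

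The differences from myoblasts to myotubes were 1.14 SD for the *Nuak1* bin and 0.97 SD for the *Appl2* bin. To AraC-treated myotubes they were 1.80 SD and 1.68 SD. Among the 4727 autosomal bins with data, the *Nuak1* bin had the 8th largest rise to myotubes and the 6th largest to AraC-treated myotubes, and the *Appl2* bin the 24th and the 11th. On chromosome 10 the *Nuak1* bin came first of 255 bins in both comparisons and the *Appl2* bin came next. Without division by the SD, the rises to myotubes were 1.64 and 1.28, and ranked 239th and 558th, since 5% of all autosomal bins rose by 1.64 or more on that scale, while those to AraC-treated myotubes, 2.26 and 2.02, ranked 4th and 14th. From myotubes to AraC-treated myotubes the *Appl2* bin rose by 0.71 SD and the *Nuak1* bin by 0.67 SD, 27th and 39th among autosomal bins. Both bins thus moved further in the same direction, by less than their first step.

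**Figure D1:**
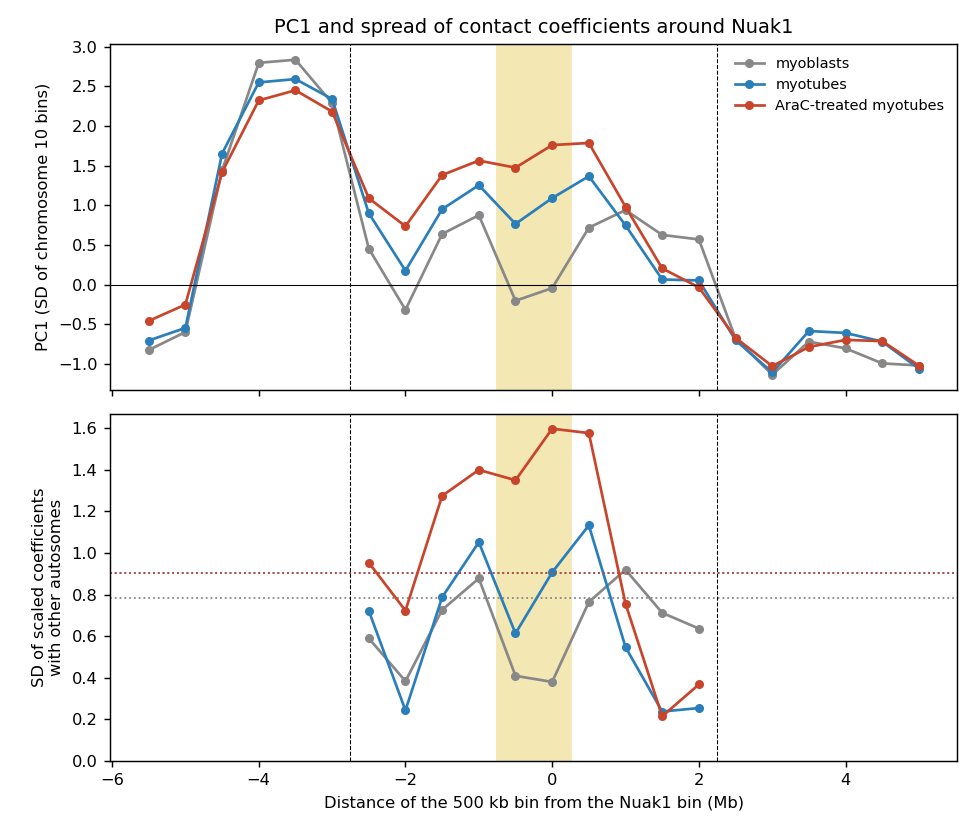
PC1 in SD units (top) and the SD of each bin's scaled coefficients with bins of other autosomes (bottom) against distance from the *Nuak1* bin in Mb, with 1 point per 500 kb bin and condition. The shaded band marks the 2 member bins, dashed lines the 10-bin region, and dotted lines the median over chromosome 10 bins (0.903 in myotubes, then 0.906 in AraC-treated myotubes, which overlie). The myoblast dip at the member bins, at -0.20 and -0.04 SD, is shallower in myotubes, at 0.76 and 1.09 SD between neighbours at 1.25 and 1.37 SD. It is nearly filled in AraC-treated myotubes, at 1.47 and 1.76 SD between 1.56 and 1.79 SD. The last 2 bins on the right fall instead.

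In SD units and at 0.5 SD, the rise had the same right border in both comparisons with myoblasts and a left border that differed. With a bin counted as rising at 0.5 SD or more, the run around *Nuak1* was 3 bins long in myotubes, chr10:83500001-85000000, with 10 protein-coding genes, where 3.83% of autosomal bins rose that far. In AraC-treated myotubes it was 7 bins long, chr10:81500001-85000000, with 42 genes, where 7.09% did. From myotubes to AraC-treated myotubes the run held the 2 member bins alone, where 2.18% of autosomal bins rose. In myotubes the values just inside and just outside were 0.97 SD in the *Appl2* bin and 0.38 SD to its left, and 0.65 SD against -0.19 SD on the right. In AraC-treated myotubes they were 0.64 SD and -0.11 SD on the left, and 1.07 SD and 0.04 SD on the right. The right border, between chr10:84500001-85000000 and chr10:85000001-85500000, was thus at the same place in both. Without division by the SD the run in AraC-treated myotubes ended 1 bin further right, at 85500000, where PC1 rose by 0.525 and, in myotubes, by 0.382. Of 96 runs on autosomes in myotubes, 16 were at least as long, the longest 13 bins. Of 122 runs in AraC-treated myotubes, 10 were at least as long, the longest 19 bins. The run lengths depend on the threshold, being 1 and 3 bins at 1 SD, and 5 and 12 bins at 0.5 without division by the SD. At 0.25 SD the run was 7 bins long in both comparisons with myoblasts, so the left border did not differ there.

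The myoblast profile of the region was uneven, and the member bins were a dip between A bins. To their left, chr10:83000001-83500000, with *Slc41a2*, a magnesium transporter, and *D10Wsu102e*, was already in A in myoblasts at 0.87 SD and reached 1.25 and 1.56 SD. To their right, chr10:84500001-85000000, with *Ckap4*, *Tcp11l2*, *Polr3b* (a subunit of RNA polymerase III), *Rfx4* and *Ric8b*, went from 0.72 SD in myoblasts to 1.37 SD in myotubes, then 1.79 SD in AraC-treated myotubes. In myotubes the *Appl2* and *Nuak1* bins, at 0.76 and 1.09 SD, still lay below both neighbours. In AraC-treated myotubes the *Nuak1* bin, at 1.76 SD, lay close to its right neighbour. Further left, chr10:82500001-83000000, with *Tdg*, *Nfyb*, *Txnrd1* and *Chst11*, went from 0.64 to 0.95 and 1.38 SD. Here *Tdg* encodes a DNA glycosylase that acts in base excision repair, *Nfyb* a subunit of the CCAAT-binding factor NF-Y, and *Txnrd1* a thioredoxin reductase.

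A further dip on the left rose as well but stayed below both of its neighbours in each condition. The bin chr10:82000001-82500000, whose named genes include the zinc finger genes *Zfp873* and *Zfp938*, was at -0.32 SD in myoblasts, 0.17 SD in myotubes, then 0.74 SD in AraC-treated myotubes. Its rise to myotubes, 0.49 SD, fell just below the threshold, and its rise to AraC-treated myotubes was 1.05 SD. The leftmost bin, with *Gna11*, *Tle2*, *Aes* and *Sirt6*, went from 0.45 SD to 0.90 and 1.09 SD. The gene-dense bins beyond it, which hold *Stk11* among others, were at 2.29 to 2.84 SD in myoblasts. In SD units none of these 3 bins reached the threshold, with differences of -0.25 to 0.05 SD to myotubes and -0.47 to -0.11 SD to AraC-treated myotubes. Without division by the SD all 3 rose, by 1.62 to 1.70 and by 0.81 to 1.02.

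On the right the direction turned in SD units. PC1 of chr10:85000001-85500000, with *Cry1*, a repressor of the circadian clock, and *Mterf2*, was 0.94 SD in myoblasts, 0.75 SD in myotubes, then 0.98 SD in AraC-treated myotubes. PC1 of chr10:85500001-86000000, with *Pwp1*, *Prdm4*, *Ascl4* and *Rtcb*, was 0.63 SD, 0.06 SD and 0.20 SD. PC1 of chr10:86000001-86500000, with *Timp3*, an inhibitor of matrix metalloproteinases, *Syn3*, *Fbxo7* and *Bpifc*, was 0.57 SD, 0.05 SD and -0.04 SD. In SD units the rise at *Nuak1* and the fall at *Timp3* thus lay within 2 Mb of each other. The difference of the *Pwp1* bin to AraC-treated myotubes, -0.42 SD, did not reach 0.5 SD. Without division by the SD, the *Pwp1* and *Timp3* bins differed from myoblasts by -0.382 and -0.358 in myotubes, near the autosomal median of -0.312. In AraC-treated myotubes they differed by -0.219 and -0.479, against a median of -0.210. A fall of 0.5 SD or more was seen in 2.96% of autosomal bins in myotubes and 5.86% in AraC-treated myotubes. Beyond the region on the right, chr10:86500001-87000000, with *Hsp90b1*, was in B in all conditions, at -0.68, -0.70 and -0.67 SD.

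The near-zero PC1 of the member bins in myoblasts went with a flat contact profile. Coefficients were scaled by subtracting the mean and dividing by the SD over all pairs of a chromosome 10 bin with a bin of another autosome, and the SD of a bin's scaled values measures how strongly it prefers some partners to others. For the *Nuak1* bin this SD was 0.380 in myoblasts, the 3rd lowest of 255 bins, 0.907 in myotubes, then 1.60 in AraC-treated myotubes. For the *Appl2* bin it was 0.409, the 9th lowest, then 0.613 and 1.35. The medians over chromosome 10 bins were 0.783, 0.903 and 0.906, so both bins passed from well below the median to well above it in AraC-treated myotubes. The neighbouring bin with *Ckap4* and *Polr3b* had 0.764 in the same myoblast matrix, the 117th lowest. The flat profile was not particular to the member bins, since chr10:82000001-82500000 had 0.383 there, the 5th lowest. The bin with *Pwp1* and *Prdm4* took the other course, from 0.712 to 0.237 in myotubes, then 0.214 in AraC-treated myotubes, the lowest of the 255 bins there.

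The member bins also came to share the partners of their neighbours. The correlation of the *Nuak1* bin's profile over other autosomes with that of its right neighbour was 0.0259 in myoblasts, 0.972 in myotubes, then 0.986 in AraC-treated myotubes. With the left neighbour of the pair, the bin of *Slc41a2*, it was 0.0722, 0.975 and 0.986. The *Appl2* bin correlated at -0.207, 0.938 and 0.971 with the bin of *Ckap4*, and at -0.173, 0.950 and 0.981 with that of *Slc41a2*. The *Appl2* and *Nuak1* bins correlated with each other at 0.314 in myoblasts, their highest value with any bin of the region there, and at 0.947 and 0.982 later. With the bin of *Timp3*, the *Nuak1* bin went from 0.0700 to -0.650 and -0.779. These correlations are over the same partner bins in each matrix and describe the profiles, and a flat profile leaves less room for a high value.

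Coefficients between the bins of the region themselves grew into a block that did not take in the 2 rightmost bins. Over the 10 pairs among the 5 bins from 1.5 Mb left to 0.5 Mb right of the *Nuak1* bin, the mean coefficient was 0.0355 in myoblasts (range 0.0136 to 0.0577), 0.0931 in myotubes (0.0553 to 0.129) and rose to 0.163 in AraC-treated myotubes (0.144 to 0.200). The lowest pair in AraC-treated myotubes was above the highest pair in myotubes. Between these 5 bins and the 2 rightmost bins the mean was 0.0307, 0.0156 and -0.00481. With the bin in between, that of *Cry1*, it was 0.0435, 0.0585 and 0.0864, so in both later conditions it lay between the 2 other means. Over all 1010 chromosome 10 pairs up to 2 Mb apart the mean was 0.0536, 0.0797 and 0.0703. The pair of the *Appl2* and *Nuak1* bins had 0.0352, 0.0786 and 0.167, which was above 33.2%, 46.0% and 94.6% of those pairs.

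**Figure D2:**
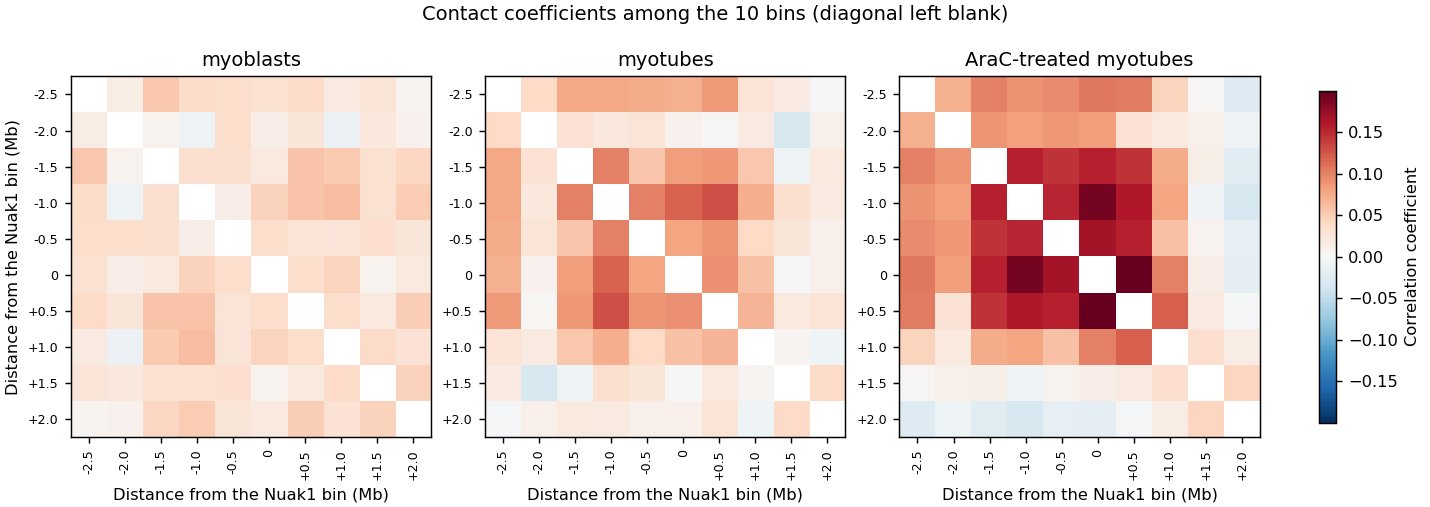
Correlation coefficients between the 10 bins of the region in each condition, with both axes giving the distance of a bin from the *Nuak1* bin in Mb, red positive and blue negative on one common colour scale. The block from -1.5 to +0.5 Mb has a mean of 0.0355 in myoblasts, 0.0931 in myotubes, then 0.163 in AraC-treated myotubes, and does not reach the last 2 bins.

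The contact profiles of the member bins along chromosome 10 were unlike those in myoblasts and alike between both kinds of myotubes. The profile correlation sets the coefficients of a bin in 2 conditions against each other (Pearson), over all bins of chromosome 10 except itself. For the *Appl2* bin it was -0.351 between myoblasts and myotubes, the 4th lowest of 255 bins, and -0.364 between myoblasts and AraC-treated myotubes, the 6th lowest. For the *Nuak1* bin it was -0.126 and -0.155, the 8th lowest in both. The bins were chosen for their PC1 rise and their myoblast profiles were flat, so these low values describe the choice. In the same region the *Pwp1* bin had -0.386 and 0.0387, the 2nd and 14th lowest. The *Timp3* bin had -0.353 and -0.521, the 3rd and 2nd lowest. The medians over chromosome 10 bins were 0.880 and 0.844, and 9 and 11 bins were below 0. Between both kinds of myotubes the *Appl2* bin had 0.930 and the *Nuak1* bin 0.966, around the median of 0.956. Over bins of other autosomes, the *Appl2* bin had -0.177 and -0.192 against myoblasts, while the *Nuak1* bin had 0.00728 and 0.0263, so the sign for *Nuak1* depends on the partners used and its value is near 0 in each case.

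Partners were called gained where the scaled coefficient rose by 1 SD or more and lost where it fell by as much. On chromosome 10, among 246 partner bins more than 2 Mb away, the *Nuak1* bin gained 35 and lost 78 from myoblasts to myotubes, and the *Appl2* bin gained 25 and lost 39. Over all chromosome 10 pairs 2.86% were gained and 4.47% lost. To AraC-treated myotubes the *Nuak1* bin gained 49 and lost 134 and the *Appl2* bin gained 46 and lost 119, where all pairs gave 4.3% and 6.71%. Of 245 partners common to both bins, 38 were gained and 107 lost by both in AraC-treated myotubes. From myotubes to AraC-treated myotubes the *Nuak1* bin gained 10 and lost 18 and the *Appl2* bin gained 14 and lost 26, where all pairs gave 0.214% and 0.376%.

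Gained and lost partners in cis were split by compartment. Taking the mean over both bins, all 28 partners gained in myotubes and all 52 gained in AraC-treated myotubes were in A in every condition. None of the 55 partners lost in myotubes was in A in any condition, and of the 130 lost in AraC-treated myotubes 1 was in A, in myoblasts only. Of all 245 partners, 39.2% were in A in myoblasts. Gains lay on both sides, 35 of 157 partners to the left and 17 of 88 to the right in AraC-treated myotubes. A member bin with higher PC1 must on average have higher coefficients with A bins of the chromosome, so this split follows from the choice of the region and describes it.

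The partner bins with the largest rise named the gene-dense stretch to the left. The largest in both comparisons was chr10:80500001-81000000, with *Dot1l*, a histone methyltransferase, *Mknk2*, *Lmnb2* and *Gadd45b*. Its coefficient, averaged over both member bins, was -0.0211 in myoblasts, 0.169 in myotubes, then 0.247 in AraC-treated myotubes, a change of 2.36 and then 3.67 SD from myoblasts. The bin with *Stk11*, which encodes the activating kinase LKB1, *Tcf3*, *Gpx4*, *Mbd3* and *Polr2e*, at chr10:80000001-80500000, was the 3rd largest in myotubes and the 2nd largest in AraC-treated myotubes. Its mean coefficient was -0.000129, 0.165 and 0.241. The bin next to it, chr10:81000001-81500000, with *Map2k2*, *Eef2*, *Dapk3* and *Nfic*, had -0.0115, 0.145 and 0.207. A distant group lay 23 Mb to the left, with *Cdh23* and *Unc5b* at chr10:60500001-61000000 (0.0120, 0.176 and 0.241) and with *Sgpl1*, *Nodal* and *Eif4ebp2* at chr10:61000001-61500000 (0.0145, 0.165 and 0.253). On the far right, chr10:127000001-127500000, with *Cdk4*, a cell cycle kinase, *Avil* and *Cyp27b1*, was the 5th largest in myotubes, at -0.0163, 0.116 and 0.146.

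The largest falls in cis were with B bins. The bin chr10:122500001-123000000, with *Ppm1h* alone, went from 0.0521 in myoblasts to -0.0500 in myotubes, then -0.131 in AraC-treated myotubes, the largest fall in the latter at -2.67 SD. The bin of *Mon2* and *Usp15* next to it had 0.0579, -0.0431 and -0.105. The bin of *Bicc1*, *Tfam*, *Ube2d1*, *Cisd1* and *Ipmk* (chr10:71000001-71500000) had 0.0509, -0.0392 and -0.117, where *Tfam* encodes the mitochondrial transcription factor A. The largest fall in myotubes, -1.73 SD, was with chr10:71500001-72000000, where no protein-coding gene starts. In myoblasts the member bins had weakly positive coefficients with all of these.

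**Figure D3:**
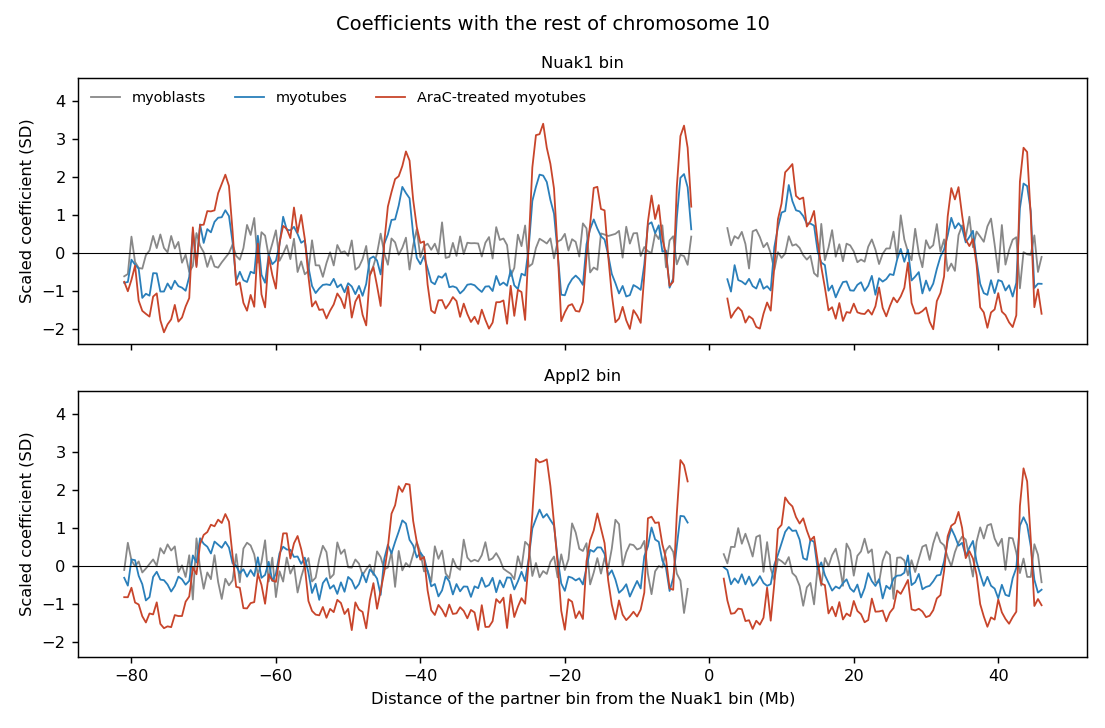
Scaled coefficients (SD) of the *Nuak1* bin (top) and the *Appl2* bin (bottom) with bins of chromosome 10 more than 2 Mb away, against distance from the *Nuak1* bin in Mb, with 1 line per condition. The peaks of the AraC-treated myotubes, at about 23 Mb and 4 Mb to the left among others, rise above those of the myotubes.

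Partners also changed between chromosomes. From myoblasts to myotubes, among 4474 bins of other autosomes, the *Nuak1* bin gained 658 partners and lost 954, and the *Appl2* bin gained 516 and lost 493, where 3.56% of all chromosome 10 pairs were gained and 5.24% lost. To AraC-treated myotubes, among 4472 bins, the *Nuak1* bin gained 979 and lost 2020, which is 21.9% and 45.2%, and the *Appl2* bin gained 939 and lost 1698, or 21.0% and 38.0%. All pairs gave 5.17% and 7.3%. The *Nuak1* bin had the most gained and lost partners together of any chromosome 10 bin in both comparisons, 1612 and 2999, against medians of 299 and 438. A bin chosen for its PC1 rise must on average change its coefficients with A and B bins, so this rank describes the choice. From myotubes to AraC-treated myotubes the *Nuak1* bin gained 655 and lost 140 and the *Appl2* bin gained 657 and lost 248, where all pairs gave 0.56% and 0.36%. At this threshold the second step brought more gains than losses in trans, and the first step, for the *Nuak1* bin, more losses than gains. The latter turned at 2 SD, where the *Nuak1* bin gained 117 and lost 26 in the first step, and gained 625 and lost 296 from myoblasts to AraC-treated myotubes.

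Trans partners were split in the same way, and this split too follows from the choice of the region and describes it. Of the 584 bins gained in myotubes on the mean over both member bins, all were in A in each condition. Their median number of protein-coding start sites was 8, against 2 over all partners, and 3.08% of them had none, against 24.3%. Of the 555 bins lost, 2 were in A in myoblasts. Of the 953 bins gained in AraC-treated myotubes, 97.3% were in A in myoblasts and all in AraC-treated myotubes, and of the 1936 lost, 3.31% were in A in myoblasts and 33.6% had no start site. Chromosome 11 gave the highest share of gained bins, 32.5% of 237 in myotubes, rising to 40.1% in AraC-treated myotubes. Its share of bins in A was 42.2% in the former and 43.9% in the latter. The other autosomes gave 8.01% to 16.8% in myotubes and 16.4% to 29.9% in AraC-treated myotubes. Shares by chromosome are not given here for other bins of chromosome 10. Whether the chromosome 11 share is particular to the member bins was not tested.

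The trans partners with the largest rise were A bins. In myotubes the largest was chr3:95500001-96000000, with *Mcl1*, a survival factor of the Bcl-2 family, *Ctss*, *Ensa* and *Ecm1*. Its mean coefficient with the member bins was -0.0172 in myoblasts, 0.159 in myotubes, then 0.232 in AraC-treated myotubes. The 3rd largest, chr17:28000001-28500000 with *Ppard*, *Tead3*, *Def6* and *Fance*, had -0.00152, 0.185 and 0.266, where *Ppard* encodes a nuclear receptor of fatty acid oxidation and *Tead3* a TEAD transcription factor. The 6th largest, chr17:45500001-46000000, holds *Mymx*, the fusion peptide myomixer of myoblasts, beside *Hsp90ab1*, *Nfkbie* and *Slc29a1*, and had -0.0184, 0.147 and 0.211. In AraC-treated myotubes the largest was chr19:6000001-6500000, with *Capn1*, a calpain protease, *Syvn1*, *Fau* and *Vps51*, at -0.0119, 0.158 and 0.261, a change of 4.02 SD from myoblasts. Chromosome 15 gave 5 of the 10 largest there, between chr15:79000001-79500000 and chr15:81500001-82000000, with *Pdgfb*, *Atf4*, *Mrtfa*, *Ep300* and *Tnrc6b* among their genes. *Mrtfa* encodes an actin-regulated coactivator of serum response factor and *Ep300* a histone acetyltransferase. The bin of *Runx1* alone, chr16:92500001-93000000, was the 6th largest there, at -0.00431, 0.160 and 0.262.

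The largest falls in trans were with B bins. The bin chr2:174500001-175000000, with *Edn3* and *Zfp831*, had 0.0587 in myoblasts, -0.0574 in myotubes, then -0.120 in AraC-treated myotubes. The bin chr11:49500001-50000000, with olfactory receptor genes such as *Olfr1384*, had 0.0546, -0.0665 and -0.125. The bin chr16:89500001-90000000, with the keratin-associated genes *Krtap7-1* and *Krtap11-1*, had the largest fall to AraC-treated myotubes, -3.01 SD, at 0.0539, -0.0520 and -0.132. In myotubes the largest fall, -2.08 SD, was with chr8:115000001-115500000, where no protein-coding gene starts.

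**Figure D4:**
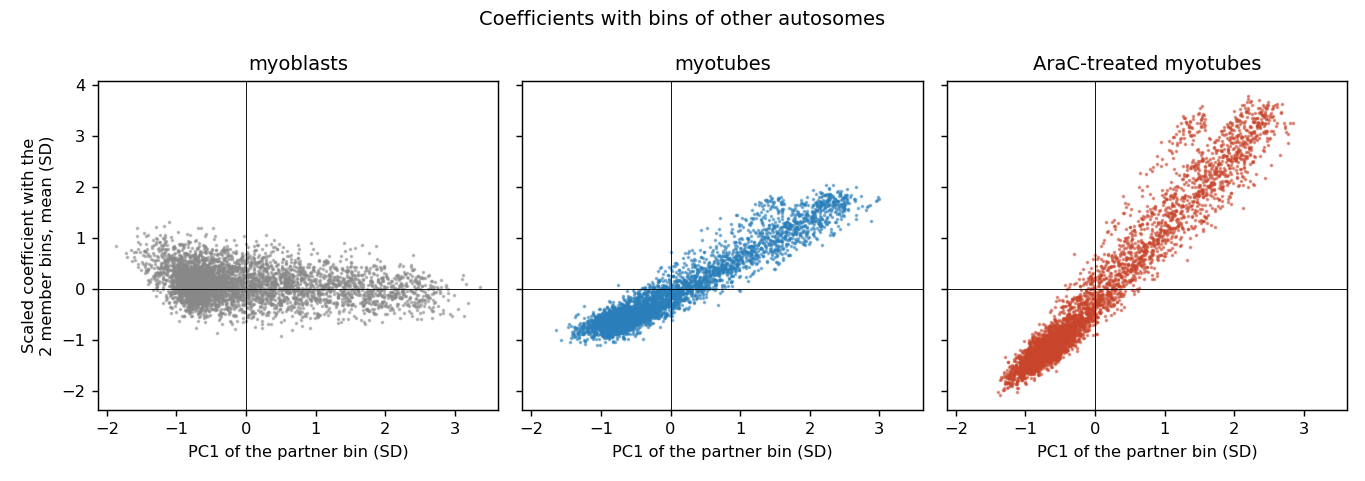
Scaled coefficient (SD), averaged over the 2 member bins, against PC1 of the partner bin (SD) in the same condition, with 1 point per bin of another autosome. The myoblast cloud is flat or tilts slightly downward, and the clouds of myotubes and AraC-treated myotubes rise with PC1 of the partner, more steeply in the latter.

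The preference for A over B partners on other autosomes was close to 0 or slightly reversed in myoblasts and strong in AraC-treated myotubes. The mean scaled coefficient of the *Nuak1* bin was 0.0835 with A bins and 0.120 with B bins in myoblasts, a difference of -0.0370. In myotubes it was 0.868 and -0.694, a difference of 1.56, and in AraC-treated myotubes 1.69 and -1.19, a difference of 2.87. The *Appl2* bin had differences of -0.196, 1.03 and 2.40. The *Nuak1* bin was above 58.0%, 82.0% and 93.7% of chromosome 10 bins by this measure, and the *Appl2* bin above 54.9%, 74.5% and 90.2%. The bin of *Timp3* went the other way, from 0.916 to -0.269 and -0.471. These means cover 1707 A and 2767 B bins in myoblasts, and fixing the compartments from myoblasts or from AraC-treated myotubes kept every sign of the change. Over chromosome 10 bins, PC1 correlated with the same component computed from other autosomes only at 0.9947, 0.9978 and 0.9975. The rise of the preference at the member bins therefore follows from the choice of the region and describes it.

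Bins whose PC1 followed the same course as the *Nuak1* bin were sought among autosomal bins outside the region by the Euclidean distance over the 3 conditions. The nearest, at a distance of 0.139 SD, was chr6:148000001-148500000 with *Far2*, *Ergic2* and *Tmtc1*, at -0.09, 0.96 and 1.77 SD. The bin next to it, with *Ipo8*, *Caprin2* and *Sinhcaf*, was the 4th nearest, at 0.18, 1.22 and 1.92 SD. The 2nd nearest, chr8:128500001-129000000, holds *Itgb1*, the integrin beta-1 subunit of cell adhesion, and had -0.14, 0.99 and 1.67 SD. The 3rd, chr3:99500001-100000000 with *Spag17*, had 0.06, 0.85 and 1.78 SD, and the 5th, chr8:125500001-126000000 with *Sipa1l2*, *Pcnx2* and *Kcnk1*, 0.06, 1.00 and 1.49 SD. The scaled coefficients of all 5 bins with the member bins were higher in AraC-treated myotubes than in myoblasts, while in myotubes those of the *Far2* and *Spag17* bins were lower. The *Itgb1* bin had scaled coefficients of -0.138, 0.379 and 2.10 with them, the *Far2* bin 0.470, 0.457 and 2.32, and the *Spag17* bin 0.467, 0.328 and 2.23.

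The bins of *Ttn*, which encodes the sarcomere protein titin, and of *Tgfbr2*, a receptor of TGF-beta, also moved from near 0 into A. The *Ttn* bin, chr2:76500001-77000000, had PC1 of -0.11 SD in myoblasts, 1.15 SD in myotubes, then 1.29 SD in AraC-treated myotubes. The *Tgfbr2* bin, chr9:116000001-116500000, had -0.04, 0.97 and 1.15 SD. Side by side with them the *Nuak1* bin had about the same values in myoblasts and myotubes, and a higher value in AraC-treated myotubes. The step from myotubes to AraC-treated myotubes was 0.67 SD for *Nuak1*, 0.14 SD for *Ttn* and 0.18 SD for *Tgfbr2*. The scaled coefficients of the member bins were 0.438, 1.04 and 1.82 with the *Ttn* bin and -0.0475, 0.659 and 1.89 with the *Tgfbr2* bin.

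**Figure D5:**
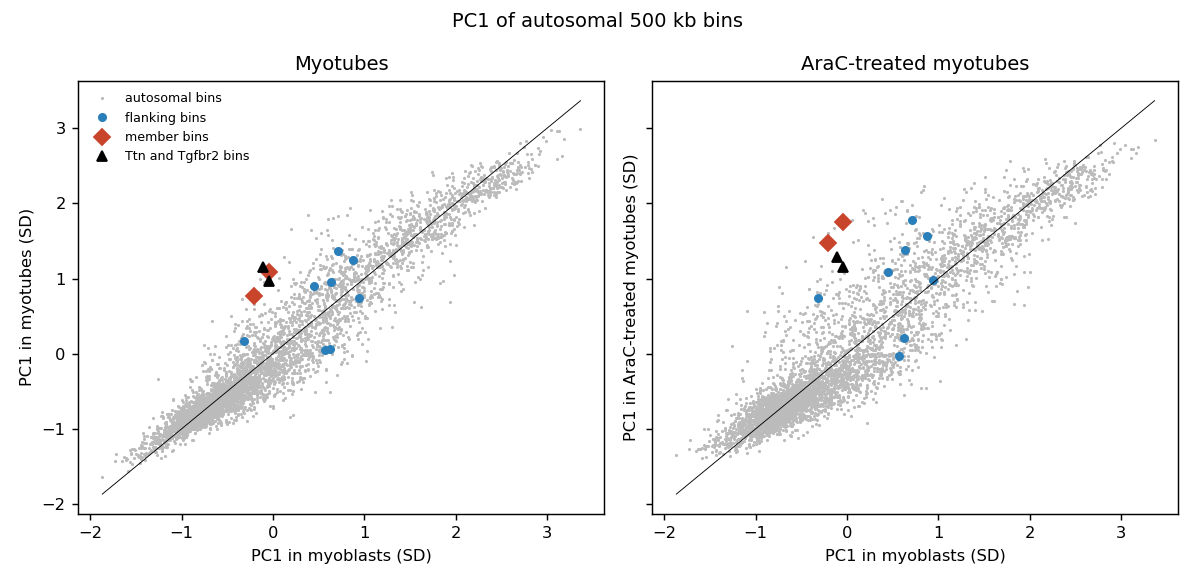
PC1 of each autosomal bin (SD) in myotubes (left) and AraC-treated myotubes (right) against myoblasts, with the line of equal values. The member bins (diamonds) lie above the line near -0.2 and 0 in myoblasts, the flanking bins (circles) lie on both sides of it, and the *Ttn* and *Tgfbr2* bins (triangles) lie beside the member bins in myotubes and below them in AraC-treated myotubes.

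Other genes of the members' pathways were placed in their bins. Of 28 bins with AMPK-related kinases and subunits of the LKB1 and AMPK complexes, 4 rose in myotubes, those of *Nuak1* itself, *Brsk2*, *Prkaa1* and *Prkab2*, and none fell, where 3.83% of all autosomal bins rose. In AraC-treated myotubes 6 rose, with *Cab39l* and *Prkab1* added, and 1 fell, that of *Mark3*, from 2.72 SD in myoblasts to 2.13 SD. The background was 7.09% rising and 5.86% falling, and the member bins were themselves chosen for their rise. From myotubes to AraC-treated myotubes 3 bins rose, those of *Nuak1* itself, *Cab39l* and *Prkab2*, where 2.18% of all autosomal bins rose. *Prkab2*, a regulatory subunit of AMPK, went from 0.83 SD to 1.58 and 2.18 SD. *Prkaa1*, a catalytic subunit, went from -0.02 to 0.56 and 0.86 SD. *Prkab1* rose within B, from -1.30 to -0.60 SD in AraC-treated myotubes. *Nuak2*, the closest relative of *Nuak1*, was in A throughout at 2.28, 2.30 and 2.21 SD. The median change over the list was 0.12 SD in myotubes, then 0.20 SD in AraC-treated myotubes, beside -0.01 and -0.02 SD over all autosomal bins.

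The lists of the other members also held bins that rose beside the members' own. The counts stand beside 3.83% of all autosomal bins rising and 2.96% falling in myotubes, and 7.09% and 5.86% in AraC-treated myotubes. Of 17 bins with WASH and APPL genes and their endosomal partners, 3 rose in myotubes, the *Appl2* and *Washc4* bin, that of *Appl1* (0.85, 1.39 and 1.56 SD) and that of *Rab5b* (0.98, 1.68 and 1.25 SD), and 2 in AraC-treated myotubes, with *Rab5b* no longer among them. Of 14 bins with genes of folate metabolism, that of *Aldh1l2* was among those that rose in myotubes, and those of *Aldh1l2* and *Aldh1l1*, its cytosolic counterpart, in AraC-treated myotubes, where those of *Amt* and *Mthfd2l* fell. Of 28 cell cycle bins 2 rose in each comparison, with *Ccnb1* in both, and none fell. Of 36 bins with sarcomere and differentiation genes, 4 rose in myotubes, those of *Cacna1s*, *Lmod3*, *Neb* and *Ttn*, and 4 in AraC-treated myotubes, those of *Neb*, *Ttn*, the myosin heavy chain cluster and *Tnni2* with *Tnnt3*, and none fell.

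Coefficients of these lists with the member bins were set beside those of all bins of other autosomes. The lists also hold bins of chromosome 10 more than 2 Mb away, scaled over cis pairs, which the comparison set does not. The median scaled coefficient of the AMPK-related list, over 27 bins, was 0.0749 in myoblasts, 1.04 in myotubes, then 2.34 in AraC-treated myotubes. Over all trans bins it was 0.0921, -0.399 and -0.849. The sarcomere list had 0.145, 1.05 and 1.89, the folate list -0.0424, 0.812 and 1.97, the endosomal list 0.0693, 0.861 and 1.53, and the cell cycle list 0.242, 0.264 and 0.526. The lists differ in how far they lie in A, with median PC1 in AraC-treated myotubes of 1.55 SD for the sarcomere, 1.53 SD for the endosomal, 1.49 SD for the AMPK-related, 1.32 SD for the folate and 0.64 SD for the cell cycle list, against -0.43 SD over all autosomal bins. The cell cycle list was lowest in both measures there, and the order of the other lists differed between them. The part of the compartment in the coefficients was not tested.

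The identity of the cultures was set beside marker genes by their bins. Of 7 bins with myotube markers, 5 were in A in myoblasts and 6 in both later conditions, and that of *Ttn* rose in both comparisons. The bin of *Myh1* and *Myh3* rose in AraC-treated myotubes only and stayed in B, from -1.21 SD in myoblasts to -0.54 SD. None of these bins fell by the threshold. The median change over the list was 0.04 SD in myotubes, then -0.11 SD in AraC-treated myotubes, beside -0.01 and -0.02 SD over all autosomal bins. Of 7 bins with myoblast and satellite cell markers, 5 were in A in myoblasts and 4 later, and those of *Cdh15* and *Vcam1* fell in both comparisons. Of 4 bins with fibroblast markers 2 were in A in every condition, and that of *Tcf21* fell in myotubes and that of *Thy1* in AraC-treated myotubes. Of 3 bins with adipocyte markers 2 were in A in every condition. Over all autosomal bins 38.3%, 36.5% and 35.5% were in A, 3.83% and 7.09% rose, and 2.96% and 5.86% fell. Compartment values of marker bins do not measure the share of cells of a type.

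Base composition and restriction sites of the member bins lay within the range of the flanking bins. GC content was 45.1% in the *Appl2* bin and 44.7% in the *Nuak1* bin, higher than in 87.8% and 85.1% of chromosome 10 bins, and ran from 40.3% to 46.6% across the region. The bins held 158 and 153 HindIII sites, where digestion cut, against a median of 164. The *Nuak1* bin had 1 protein-coding start site, fewer than the median bin's 2, and the *Appl2* bin had 4.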

How the data were processed

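Per the labels and the methods, reads were mapped with Bowtie in HiCUP, and HOMER normalized the read pairs, pooled over the 2 replicates of each condition. Each of the 3 matrices the authors deposited holds 1 condition, and a value in it (a score from -1 to 1) is the Pearson correlation coefficient of the contact profiles of a pair of 500 kb bins. Bins follow mm10, and the last bin of each of 20 chromosomes lay within the GRCm38.p6 chromosome of that name. A coefficient does not show the number of read pairs behind it, so the depth is not known from the matrices, and columns of unmapped samples numbered 0.

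For every chromosome and matrix, a principal component analysis of the coefficients within it gave PC1 (Python 3.11.15, NumPy 2.4.6). Columns were centred only, and the side with more protein-coding start sites (GENCODE vM21) was made positive. Coefficients were scaled over chromosome 10 pairs of the same kind, in cis more than 2 Mb apart. With 1 pooled matrix per condition no test was run. The steps were tested on simulated matrices. Named genes were the members, genes starting in the region, and the partner bins with the largest changes (5 in cis and, in trans, 10 rises and 5 falls, with at most 5 genes each), the 5 bins nearest in PC1, the *Ttn* and *Tgfbr2* bins and 5 gene lists with markers. The members and lists were chosen with earlier results of these data known. Promoter sequences are from RefSeq, which gave 3 of the 4 members. RNA-seq was not analysed here. The value of 1 gene of the lists is not reported here.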

Additional observations from a re-analysis of the deposited data

How the results depend on the processing

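No paired analysis was possible because the replicates of each condition were pooled before deposit and the columns carry no replicate, and leaving out a replicate was not possible for the same reason. Of 194 alternative values for 55 results, 128 kept their direction and stayed within 1.5 times of the value in the text, 64 moved further and 2 turned in sign. The PC1 differences and the preference for A over B partners of both bins kept direction and stayed within 1.5 times under every alternative tried. Without division by the SD the PC1 differences are in another unit, so their size cannot be compared there. On that scale the rises to myotubes ranked 239th and 558th among autosomal bins. The matrices do not show the number of read pairs behind a coefficient, and how small a difference they could show was not worked out.

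The run of rising bins was 1 bin at 1 SD, 7 at 0.25 SD and 5 without division by the SD in myotubes against myoblasts. In AraC-treated myotubes against myoblasts it was 3 at 1 SD, 7 at 0.25 SD and 12 without division. Against myotubes it was 0 at 1 SD and 6 at 0.25 SD. Over other autosomes only, the profile correlation of the *Nuak1* bin turned to 0.00728 in myotubes, then 0.0263 in AraC-treated myotubes against myoblasts, and that of the *Appl2* bin was -0.177 and -0.192. The cause was not tested.

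Partner counts fell with a threshold of 2 SD, by its construction. From myoblasts to myotubes the *Nuak1* bin then gained 4 and lost 0 partners in cis and gained 117 and lost 26 in trans, and the *Appl2* bin gained 1 and lost 0 in cis and gained 23 and lost 2 in trans. To AraC-treated myotubes the *Nuak1* bin gained 22 and lost 40 in cis and gained 625 and lost 296 in trans, and the *Appl2* bin gained 17 and lost 19 in cis and gained 565 and lost 187 in trans. Between both kinds of myotubes, each bin gained 0 and lost 0 in cis, and the *Nuak1* bin gained 5 and lost 0 and the *Appl2* bin gained 16 and lost 0 in trans. With undivided coefficients and a change of 0.25, each bin gained 0 and lost 0 in cis in every comparison, except that to AraC-treated myotubes the *Nuak1* bin gained 2 and the *Appl2* bin 1 from myoblasts. With a change of 34 percentile points, the *Appl2* bin lost 1017 trans partners from myoblasts to myotubes. Between both kinds of myotubes the *Nuak1* bin then gained 0 and lost 1 in cis and gained 84 and lost 3 in trans, and the *Appl2* bin gained 2 and lost 0 in cis and gained 73 and lost 17 in trans.

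On the undivided scale, the median coefficient of the AMPK-related list with the member bins rose by 0.0880 in myotubes, then 0.160 in AraC-treated myotubes, the endosomal list by 0.0779 and 0.104, the folate list by 0.0746 and 0.140, the cell cycle list by 0.0144 and 0.0243 and the sarcomere list by 0.0869 and 0.126. These are in another unit and kept their direction.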
